A study of Mus musculus with 4 samples.

Results

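The integrated stress response was described through 10 genes, Gdf15, Atf4, Atf5, Ddit3, Trib3, Asns, Chac1, Psat1, Hspa5 and Fgf21, in RNA-seq of 4 sarcomas. The genes were chosen by symbol, as the Atf4 pathway with Gdf15, which p53 shares. The 10 symbols matched 11 of the 56691 genes in the table, because Ddit3 has a further short gene model. Both groups carried the same mutation, labelled p53R282W/+ after the human residue, which the study writes as p53-R279W in the mouse (W/+), on a C57BL/6N background. The allele is a knock-in made by genome editing, present in every cell of the mouse, so tumor and host cells both carry it. The ATO group (ATO 1 and ATO 2) held 2 sarcomas from mice given arsenic trioxide in their drinking water from young adulthood. The PBS group (PBS 1 and PBS 2) held 2 sarcomas that the labels give as PBS and the study calls untreated. Age at sampling and the histological type of each sarcoma were not given in the sources used here. The sarcomas were spontaneous, and the study lists several types among them. The comparison asked how ATO and PBS sarcomas differed in the transcripts of this pathway.

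In the integrated stress response, kinases that sense amino acid shortage, unfolded protein, heme shortage and mitochondrial stress, or viral RNA phosphorylate the initiation factor eIF2. General translation then slows, while the mRNAs of Atf4, Atf5 and Ddit3 are translated better through upstream open reading frames. Atf4 is thus controlled largely at translation, so its mRNA level does not by itself report the activity of the pathway. Atf4 and its partners bind C/EBP-ATF response elements in the promoters of genes for amino acid synthesis, glutathione breakdown and feedback control. Gdf15 and Fgf21 are stress hormones downstream of the pathway, and Gdf15 is also a known p53 target. Arsenite is a classic inducer of the pathway in cultured cells.

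The promoters of these genes were searched for exact matches to the elements by which the pathway is best known. Inexact matches and elements outside the windows were not searched, so a gene without a match is not thereby unlinked from the pathway. RefSeq windows of 250 bases before to 50 bases after the transcription start, on GRCm38.p6, were at hand for all 10 genes (13 windows). The core of the C/EBP-ATF response element, TGATGNAA on either strand, was present in the windows of 4 of the 10 genes, Chac1, Trib3, Asns and Fgf21. Counted by window, 4 of the 13 windows of these genes and 3.97% of all 32851 promoter windows held this core. The windows of Chac1 (chr2:119351019-119351086, plus strand), Asns (chr6:7693214-7693243, minus strand) and Fgf21 (chr7:45615592-45615659, minus strand) are shown around the core in capitals, read 5′ to 3′ along each gene.
Chac1: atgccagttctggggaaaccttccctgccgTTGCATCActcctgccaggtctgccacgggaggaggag
Asns: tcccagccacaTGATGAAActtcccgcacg
Fgf21: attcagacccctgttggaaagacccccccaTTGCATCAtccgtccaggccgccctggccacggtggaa
The core began 193 bases before the start in Chac1, 23 bases before it in Asns and 139 bases before it in Fgf21, and it lay on the opposite strand in Chac1 and Fgf21. In Trib3 it lay 14 bases after the start.
Hspa5 encodes the chaperone BiP, whose promoter is known for endoplasmic reticulum stress elements, a CCAAT box set apart from CCACG by a fixed spacer. One exact match was present in its window, 65 bases before the start (chr2:34772020-34772048, plus strand), and it is shown in capitals.
Hspa5: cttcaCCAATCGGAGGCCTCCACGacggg
This element was found in 0.119% of all windows and in no other of the 10 genes. A CCAAT box alone, which the longer element contains, was present in 7 of the 13 windows and in 37.4% of all windows. Distances here are counted from the RefSeq starts, which differ from the GENCODE gene bounds given with each gene below. Counted from the outermost GENCODE start, the elements of Hspa5 and Asns lay 55 and 22 bases after it, within the first exon, and the core of Trib3 lay 14 bases before it, so that promoter and transcript cannot be told apart there. These matches describe the letters of the windows, and binding was not measured.

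The 4 libraries held between 15259695 and 18134000 counts in all, and the upper limit set by a count of 0 (3 counts) was at most 0.197 CPM (counts scaled to the library total). The share of mitochondrial genes was 14.7% in ATO 2 and 1.98% to 2.59% in the other libraries. The mesenchymal markers Vim, Col1a1, Col1a2, Col3a1 and Pdgfrb were detected in every sarcoma, with summed FPKM (the count scaled to exon length and to the library total) between 1154 and 4765.2, while the summed level of 5 epithelial markers was between 1.05 and 18.8 FPKM. Markers of other tissues differed between the groups or stood out in 1 sarcoma. The labels of all 4 samples also carry a cell culture protocol with dexamethasone, isobutylmethylxanthine and insulin, agents known to drive adipocyte differentiation, which the study's methods do not describe for the tumors, and whether any sample was cultured was not tested. All 5 adipocyte markers were higher in both ATO sarcomas, with a summed level of 12.7 FPKM in PBS 1, 66.2 in PBS 2, 229 in ATO 1 and 1368.5 in ATO 2. In both PBS sarcomas, Adipoq, Plin1, Cidec and Lep had at most 3 counts. All 8 skeletal muscle markers were also higher in both ATO sarcomas (6.94, 124, 14498.3 and 1057.3 FPKM in the same order). By FPKM, 12.8% of all genes tested were higher in both ATO sarcomas. Macrophage markers summed to between 841 and 1836 FPKM in 3 sarcomas and to 5490.1 in ATO 2. Osteoblast markers reached 488 FPKM in ATO 1 and at most 13.0 elsewhere, and endothelial markers 904 FPKM in PBS 2 and at most 145 elsewhere. The part of these tissues in the results that follow was not tested, and in such bulk tissue fewer cells of a type and less RNA per cell cannot be told apart.

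Per length of transcript, the 10 genes had the chaperone at the top and the hormones near or at the bottom in the PBS sarcomas and in ATO 1, and the same ends in ATO 2 apart from Gdf15. Hspa5 was the highest in all 4, between 116.88 and 274.63 FPKM. Atf4 was the next in 3 sarcomas, between 95.36 and 114.02 FPKM. In ATO 2, Atf4 at 60.39 FPKM and Atf5 at 62.54 FPKM lay side by side, a difference smaller than that between the sarcomas of either group. Atf5, Asns, Ddit3 and Psat1 filled the middle of the order in the PBS sarcomas, between 10.28 and 22.87 FPKM, with ranges that overlapped, and Trib3 lay between Ddit3 and Psat1 in PBS 2. Fgf21 was the lowest throughout, at 0.06 to 0.35 FPKM, level with Gdf15 in PBS 1 at 0.12 FPKM. The gene that changed place most over the 4 sarcomas was Chac1, which shared the third place in ATO 1 with Atf5 at 28.67 FPKM and was ninth in ATO 2 at 1.52 FPKM. Psat1 moved from the fourth place in PBS 1 to the eighth in ATO 2, and Gdf15 was ninth in 3 sarcomas and sixth in ATO 2.

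**Figure D1:**
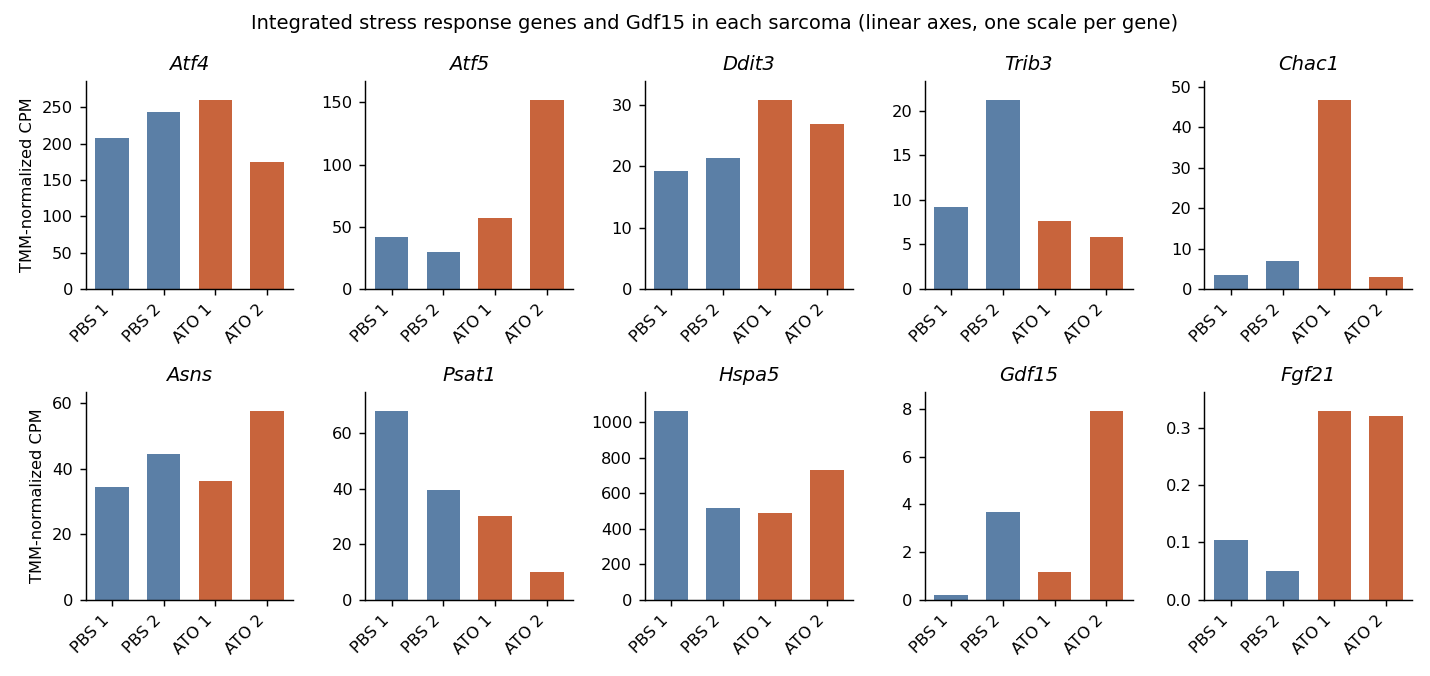
Level of each of the 10 genes in the 2 PBS (blue) and 2 ATO (orange) sarcomas as TMM-normalized CPM, 1 bar per sarcoma and a linear axis from 0 for each gene. Atf5 and Ddit3 (the latter by CPM only, not by FPKM) are higher and Trib3 and Psat1 lower in both ATO sarcomas than in both PBS sarcomas. Fgf21 is also higher in both but rests on 1 to 6 counts per sarcoma, while Chac1 stands out in ATO 1 and Gdf15 is low in 1 sarcoma of each group.

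The transcription factors of the pathway were expressed in all 4 sarcomas. Levels between sarcomas are given as CPM after TMM normalization, which sets the bulk of genes level between libraries. Atf4 (chr15:80255184-80257541, plus strand), the central activator, was at 207 CPM in PBS 1, 243 in PBS 2, 260.0 in ATO 1 and 174 in ATO 2. The ATO sarcomas were thus the highest and the lowest, and the groups overlapped. The fitted log2 fold change of ATO over PBS was -0.05 (SE 0.46, edgeR adjusted p = 0.982).

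Atf5 (chr7:44812256-44816658, minus strand), an Atf4-related factor that also serves the mitochondrial stress response, was at 41.9 CPM in PBS 1, 30.1 in PBS 2, 56.9 in ATO 1 and 152 in ATO 2. Both ATO sarcomas lay above both PBS sarcomas, and ATO 2 lay furthest from the rest. The group means were 36.0 ± 8.30 CPM in PBS and 105 ± 67.5 in ATO (SD, n = 2 each). The log2 fold change was 1.54 (SE 0.60), with the smallest p of the 9 tested genes in edgeR, 0.0542 before and 0.585 after adjustment. Without ATO 2 the log2 fold change was 0.67. ATO 2 was also the sarcoma with the highest adipocyte and macrophage marker levels and the highest mitochondrial share, and their part in the Atf5 level was not tested. Atf5 shares 82 bases (4.11% of its exons) with Nup62 and Il4i1 on the opposite strand, whose reads cannot be told apart there without the strand setting of the counting. Nup62 had 720, 686, 735 and 551 counts in PBS 1, PBS 2, ATO 1 and ATO 2, against 796, 598, 1036 and 1902 for Atf5. These counts are not scaled to the library, and ATO 2 was the smallest library. Il4i1 had at most 6 counts in any sarcoma. The part of Nup62 reads in the Atf5 counts was not tested.

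Ddit3 (chr10:127290774-127296288, plus strand), which encodes the factor CHOP, was at 19.3 CPM in PBS 1, 21.4 in PBS 2, 30.8 in ATO 1 and 26.9 in ATO 2. Both ATO sarcomas were higher by CPM. By FPKM the groups overlapped, since ATO 2 at 12.85 lay below PBS 2 at 13.77. For Ddit3 the fitted log2 fold change reached 0.51 (SE 0.39, adjusted p = 0.746 in edgeR), and it stayed between 0.39 and 0.61 when any sarcoma was left out. The short further Ddit3 model lies wholly within the exons of Ddit3 (105 bases) and had 0 counts in all 4 sarcomas. Ddit3 also shares 68 bases with Mars1, an aminoacyl-tRNA synthetase gene on the opposite strand. Mars1 had 1096, 1129, 1216 and 708 counts in PBS 1, PBS 2, ATO 1 and ATO 2, against 366, 424, 560 and 336 for Ddit3. Both were highest in ATO 1, and the part of Mars1 reads in the Ddit3 counts was not tested.

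Of the feedback and cell death genes, Trib3 was lower in both ATO sarcomas and Chac1 was high in 1 of them. Trib3 (chr2:152337422-152344032, minus strand), a pseudokinase that is induced by Atf4 and Ddit3 and restrains them, was at 9.15 CPM in PBS 1, 21.2 in PBS 2, 7.64 in ATO 1 and 5.85 in ATO 2. Both ATO sarcomas were below both PBS sarcomas on either scale, with ATO 1 close to PBS 1. On the log2 scale the fitted fold change was -1.17 (SE 0.64, adjusted p = 0.660 in edgeR), and -0.45 without PBS 2.

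Chac1 (chr2:119351229-119354381, plus strand), the glutathione-degrading enzyme whose promoter core is shown above, was at 3.37 CPM in PBS 1, 6.90 in PBS 2, 46.7 in ATO 1 and 3.04 in ATO 2. ATO 1 stood apart, and ATO 2 was the lowest of all 4. ATO 1 exceeded ATO 2 by 15.4-fold, against a 2.05-fold difference between the PBS sarcomas. Fitted over both groups, the log2 fold change was 2.28 (SE 1.32, adjusted p = 0.675 in edgeR), and without ATO 1 it was -0.77. ATO 1 was also the sarcoma with the highest muscle and osteoblast marker levels, and their part in the Chac1 level was not tested.

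Of the amino acid genes, Psat1 was lower in both ATO sarcomas and Asns overlapped between the groups. Asns (chr6:7675169-7693254, minus strand), which makes asparagine, was at 34.6 CPM in PBS 1, 44.4 in PBS 2, 36.2 in ATO 1 and 57.8 in ATO 2. The groups overlapped, and the log2 fold change was 0.25 (SE 0.43, adjusted p = 0.894 in edgeR), or -0.048 in limma on log2(FPKM + 1). Psat1 (chr19:15904678-15947337, minus strand), an enzyme of serine synthesis, was at 68.0 CPM in PBS 1, 39.6 in PBS 2, 30.2 in ATO 1 and 10.1 in ATO 2. Both ATO sarcomas were lower on either scale, and ATO 2 was furthest from the rest. Mean levels were 53.8 ± 20.1 CPM in PBS and 20.1 ± 14.2 in ATO (SD, n = 2 each). The log2 fold change of Psat1 was -1.42 (SE 0.68), with an edgeR p of 0.0958 before and 0.629 after adjustment, and it was -0.83 without ATO 2 and -2.43 without ATO 1.

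Hspa5 (chr2:34771970-34777547, plus strand), the chaperone of the endoplasmic reticulum, was at 1066.9 CPM in PBS 1, 517 in PBS 2, 492 in ATO 1 and 731 in ATO 2. PBS 1 was the highest and the groups overlapped. The fitted log2 fold change was -0.37 (SE 0.65, adjusted p = 0.894 in edgeR), and it was 0.24 without PBS 1.

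The hormones were the least expressed. Gdf15 (chr8:70629393-70632456, minus strand) was at 0.21 CPM in PBS 1 (4 counts), 3.68 in PBS 2 (73 counts), 1.15 in ATO 1 (21 counts) and 7.93 in ATO 2 (99 counts). Each group held 1 low and 1 high sarcoma. PBS 2 exceeded PBS 1 by 17.5-fold and ATO 2 exceeded ATO 1 by 6.88-fold, against a 2.34-fold difference between the group means of 1.94 ± 2.45 and 4.54 ± 4.79 CPM (SD, n = 2 each). The fitted log2 fold change was 1.22 (SE 1.58, adjusted p = 0.855 in edgeR). It was -0.74 without ATO 2, 0.30 without PBS 1 and 4.37 without PBS 2, so that its direction rested on ATO 2.

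Fgf21 (chr7:45613886-45615490, minus strand) had 2 counts in PBS 1, 1 in PBS 2, 6 in ATO 1 and 4 in ATO 2. Both ATO sarcomas were higher on either scale. The gene did not pass the filter on low counts and was not tested. The pooled counts, 10 in ATO and 3 in PBS, gave a ratio of 3.54 when scaled to the library totals without the TMM factors. Its exact 95% interval was 0.911 to 20.0, which covers counting error only and includes equal levels on that scale. By TMM-normalized CPM the ATO mean was 4.18-fold the PBS mean. No interval was computed on the TMM scale, so whether it would include equal levels is not known. The liver is a main source of circulating Fgf21, and the 4 hepatocyte markers summed to at most 0.94 FPKM in any sarcoma. Adipocyte and skeletal muscle markers were higher in both ATO sarcomas, as Fgf21 was, and the part of any tissue in its level was not tested.

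Across the pathway genes chosen, no difference between ATO and PBS sarcomas passed the test. In edgeR's quasi-likelihood test with Benjamini-Hochberg adjustment over 17188 genes, 0 of the 9 tested genes passed an adjusted p of 0.05, as did 0% of all genes tested. DESeq2 called 0 of the 9, against 4.17% of all genes, and edgeR without the filter called 0 of the 9, against 1.75% of all genes. An unadjusted edgeR p under 0.05 was reached by 0 of the 9 and by 8.51% of all genes tested. Of the 9, 5 had a higher and 4 a lower fitted level in ATO, and their median log2 fold change was 0.25, beside -0.02 for all genes. FPKM, which carry no TMM factor, shift all genes, to a median of -0.18 in limma on log2(FPKM + 1), where 4 of the 9 were higher and 5 lower with a median of -0.048. By CPM the groups did not overlap in 2 genes that were higher in ATO (Atf5 and Ddit3) and in 2 that were lower (Trib3 and Psat1), where 19.7% of all genes were higher and 20.2% lower without overlap. By FPKM it was 1 higher gene (Atf5) and the same 2 lower ones, against 12.8% and 29.6% of all genes. With 2 sarcomas per group, an exact permutation test of a single gene cannot give a two-sided p below 0.333, and no source says whether the sarcomas of a group came from separate mice, so the p-values measure the spread between these samples.

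**Figure D2:**
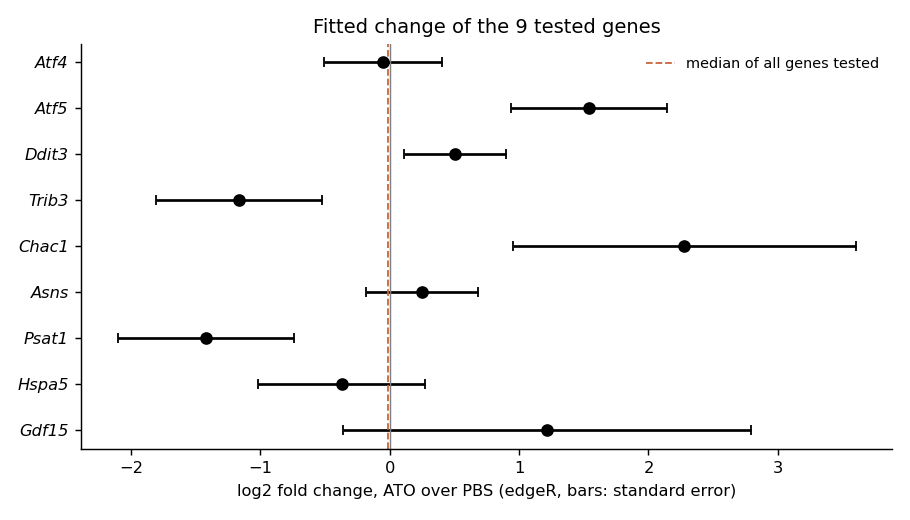
Fitted log2 fold change of ATO over PBS for the 9 tested genes, with the standard error as bars, and the median of all genes tested as a dashed line. Gdf15 and Chac1 have the widest bars (SE 1.58 and 1.32), and Atf5 lies at 1.54 and Psat1 at -1.42.

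The profiles over the 4 sarcomas were compared after centring log2(CPM + 1) for each gene, by the root mean square difference between 2 profiles among the 114 tested genes of the pathway. The 3 genes closest to Gdf15 were Stc2, a secreted glycoprotein gene, at 0.481, Atf3, a stress transcription factor gene, at 0.545 and Cebpb at 0.646. Atf3 was at 2.84 CPM in PBS 1, 27.5 in PBS 2, 3.85 in ATO 1 and 40.5 in ATO 2, so that it too was high in PBS 2 and ATO 2. The closest to Atf4 were the eIF2 kinase gene Eif2ak2 at 0.0194, Ern1, a sensor of unfolded protein, at 0.147 and the eIF2 kinase gene Eif2ak3 at 0.166. These 4 genes varied little, Atf4 by 0.58 on this log2 scale against 2.88 for Gdf15 and 3.56 for Chac1. The added 1 narrows the range of a gene as low as Gdf15, so the order of Gdf15 and Chac1 holds on this scale only.
Further neighbours were picked after their values were seen. Chac1 was closest to Eda2r (0.459), of the p53 list below, then to Ppp1r15a (0.460) and to Fgfr3 (0.514), of the receptor list. Ppp1r15a encodes the stress-induced phosphatase subunit that reverses eIF2 phosphorylation. Ppp1r15a was at 23.1, 74.3, 198 and 31.0 CPM in PBS 1, PBS 2, ATO 1 and ATO 2, highest in ATO 1 like Chac1. Eda2r, at 1.89, 11.2, 59.3 and 4.01 CPM in the same order, was highest there too. Psat1 was closest to Aldh18a1 (0.234), an enzyme of proline synthesis, and then to Fgfr1 (0.347), of the receptor list. The third closest was Phgdh, the first enzyme of serine synthesis, at 0.367. Hspa5 was closest to Calr (0.0478), another chaperone of the endoplasmic reticulum. These are descriptions over 4 sarcomas that share libraries, without a test.

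**Figure D3:**
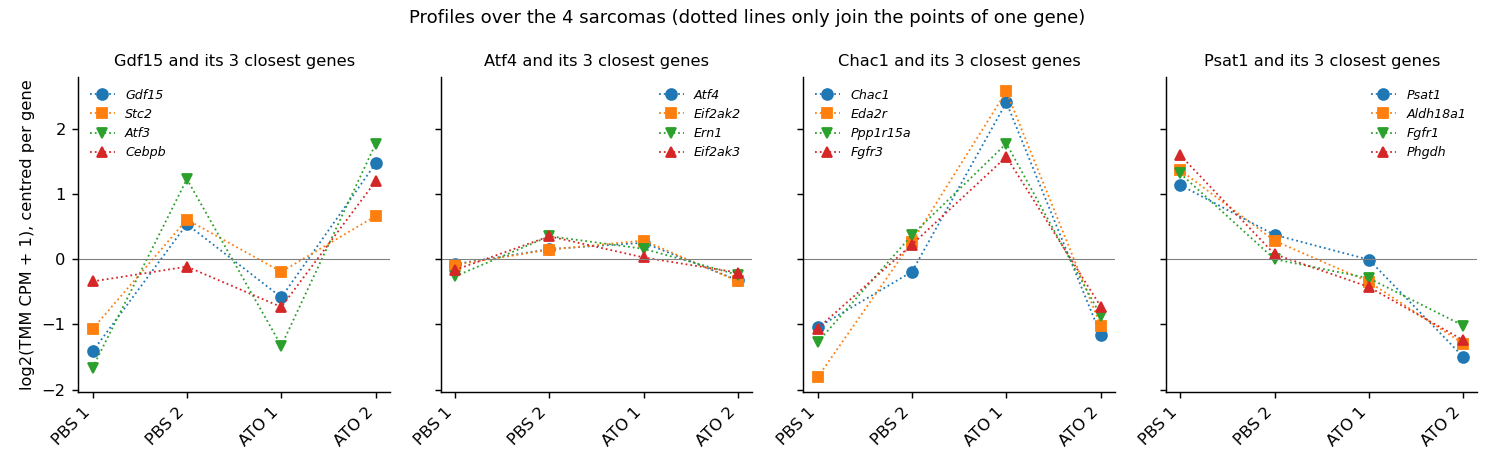
Centred log2(TMM-normalized CPM + 1) in each sarcoma for Gdf15, Atf4, Chac1 and Psat1, each with its 3 closest genes. The 114 genes compared include p53 pathway and hormone receptor genes. Gdf15 and Atf3 are high in PBS 2 and ATO 2, the Atf4 panel varies little, the Chac1 panel peaks in ATO 1, and the Psat1 panel is highest in PBS 1 and lowest in ATO 2.

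The other genes of the pathway, with hormone receptors and p53 pathway genes, were described in 8 lists of 107 genes, of which 105 were tested. Together 58 had a higher and 47 a lower fitted level in ATO, with a median log2 fold change of 0.11. None was called by edgeR. An unadjusted edgeR p under 0.05 was found for 13 of the 105 (8.51% of all genes), and DESeq2 called 4 of the 105 (4.17% of all genes). The groups did not overlap by CPM in 24 genes that were higher (19.7% of all genes) and 17 that were lower (20.2%), and by FPKM in 16 that were higher (12.8%) and 27 that were lower (29.6%), so that the balance turned with the scale. Of the 28 genes named from the lists by their p, 21 had a log2 fold change that moved by over 1.5 times or turned when 1 sarcoma was left out. The other 7 were Eif2b2, Slc1a5, Tars, Herpud1, Pdia3, Phlda3 and Ccng1. Leaving out 1 sarcoma also moved the median of all genes, to 0.08 without PBS 1, 0.15 without PBS 2, -0.16 without ATO 1 and -0.09 without ATO 2.

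The upstream genes, eIF2 kinases, phosphatase subunits, eIF2 and its exchange factor and the mitochondrial relay (14 genes), were split evenly, with 7 fitted higher and 7 lower and a median of 0.04. Without ATO 1, 4 of the 14 were higher, with a median of -0.37 beside -0.16 for all genes. Without ATO 2, 9 of the 14 were higher, with a median of 0.27 beside -0.09. Eif2b2, a subunit of the exchange factor, was at 52.1 and 63.4 CPM in PBS 1 and PBS 2 and 32.6 and 24.5 in ATO 1 and ATO 2 (log2 fold change -1.02, SE 0.40, edgeR adjusted p = 0.585). Eif2s1, the subunit of eIF2 that is phosphorylated, had a log2 fold change of -0.64 and Oma1, the protease of the mitochondrial relay, of 0.54, both without overlap by CPM, though Oma1 overlapped by FPKM. Without PBS 1 the value of Eif2s1 was -0.30, and without ATO 2 that of Oma1 was 0.27.

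The amino acid and one-carbon targets (17 genes) were more often lower, 11 against 6, with a median of -0.26. The median was -1.41 without ATO 1, -0.48 without ATO 2, -0.17 without PBS 1 and -0.15 without PBS 2, and without PBS 1 the list was 9 lower against 8 higher. Slc1a4, a transporter of neutral amino acids such as serine, was at 50.02 and 18.8 CPM in PBS 1 and PBS 2 and 10.0 and 6.25 in ATO 1 and ATO 2. Its log2 fold change of -2.08 (SE 0.67) had an edgeR p of 0.0288 before and 0.570 after adjustment, and it was -1.21 without PBS 1. Aldh18a1 was lower without overlap as well (-1.71, SE 0.60, and -1.06 without PBS 1). Phgdh, named after its values were seen because it precedes Psat1 in serine synthesis, was at 109 and 37.4 CPM in PBS 1 and PBS 2 and 26.1 and 14.4 in ATO 1 and ATO 2 (log2 fold change -1.85, SE 0.69). Psph, which follows Psat1 and was named in the same way, overlapped between the groups by CPM, at 18.1 and 18.4 in PBS and 11.2 and 21.7 in ATO. By FPKM it was lower in both ATO sarcomas, at 4.56 and 4.69 in PBS and 2.59 and 4.1 in ATO. In the other direction, the glutamine transporter gene Slc1a5 was at 66.9 and 157 CPM in PBS 1 and PBS 2 and 258 and 532 in ATO 1 and ATO 2 (1.82, SE 0.69, edgeR adjusted p = 0.585). Got1, an aminotransferase of aspartate, had a log2 fold change of 0.70 (0.31 without ATO 1).

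The aminoacyl-tRNA synthetase genes (12), which include many Atf4 targets, had 9 lower and 3 higher fitted levels and a median of -0.28. Tars was at 129 and 126 CPM in the PBS sarcomas and 68.3 and 57.4 in the ATO sarcomas (log2 fold change -1.02, SE 0.36, edgeR adjusted p = 0.570), and Sars had -0.60, which was -0.01 without PBS 1. On the higher side, Wars (0.32) and Mars1 (0.11) overlapped between the groups and turned to -0.01 and -0.16 in limma on log2(FPKM + 1), in which 0 of the 12 were higher. Without PBS 1, 7 of the 12 were higher, with a median of 0.055 beside 0.08 for all genes. The number of higher genes was 3 without PBS 2, 1 without ATO 1 and 6 without ATO 2.

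Other stress transcription factors and Atf4 targets (14 of 15 tested) were more often higher, 11 against 3, with a median of 0.60. The split was 8 against 6 without ATO 2 and 9 against 5 without ATO 1 or without PBS 1, and the median was 1.09 without PBS 2, 0.93 without ATO 2 and 0.17 in limma on log2(FPKM + 1). Herpud1, which serves the degradation of endoplasmic reticulum proteins, was at 50.6 and 55.5 CPM in PBS 1 and PBS 2 and 122 and 109.6 in ATO 1 and ATO 2. The groups were apart and close within themselves, and the log2 fold change was 1.13 (SE 0.36, adjusted p = 0.570 in edgeR). Vldlr, a lipoprotein receptor gene, was at 36.3 and 45.9 CPM in the PBS sarcomas and 309 and 95.8 in the ATO sarcomas (2.30, SE 0.69, edgeR adjusted p = 0.570), and without ATO 1 its log2 fold change was 1.21. Tnfrsf10b, a death receptor gene that CHOP and p53 both activate, overlapped between the groups, with 62.6 CPM in PBS 2 and 8.68 to 20.4 in the other sarcomas (-1.38, SE 0.92). Jdp2 overlapped too (-0.55, SE 0.77).

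Among endoplasmic reticulum chaperones and sensors (23 genes), 8 had a higher and 15 a lower fitted level, with a median of -0.12. The number of higher genes was 13 without PBS 1, 10 without PBS 2, 12 without ATO 1 and 6 without ATO 2. By limma on log2(FPKM + 1) it was 4. Without PBS 1 the median was 0.064, beside 0.08 for all genes. The abundant oxidoreductases Pdia3 and P4hb were lower without overlap, Pdia3 at 894 and 636 CPM in the PBS sarcomas against 299.7 and 443 in the ATO sarcomas (log2 fold change -1.04, SE 0.56) and P4hb by -1.06 (SE 0.60). Dnajb9, a cochaperone of Hspa5, was higher without overlap at 0.60, and so was Derl3 at 2.85, which rested on 107 counts in ATO 2 against 10 to 22 counts in the other sarcomas.

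The mitochondrial stress chaperones and proteases (10 genes), where Atf5 is known to act, had 9 higher fitted levels and 1 lower, with a median of 0.89. Clpx, of the matrix protease, was at 48.3 and 36.4 CPM in PBS 1 and PBS 2 and 74.3 and 126 in ATO 1 and ATO 2 (log2 fold change 1.24, SE 0.45, edgeR adjusted p = 0.576). Afg3l2, an inner membrane protease and the gene with the profile closest to Atf5 (0.173), was at 75.6, 43.0, 90.0 and 198 CPM in PBS 1, PBS 2, ATO 1 and ATO 2. Yme1l1 was the gene that was lower (-0.34). Without ATO 2, the sarcoma with the highest mitochondrial share, 5 of the 10 were higher and the median was 0.10. The part of that share in the list was not tested.

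Of the hormone receptors, Gfral, through which Gdf15 acts in the hindbrain, had 1 count in ATO 1 and 0 in the other sarcomas. The others (5 tested) had 4 higher fitted levels and a median of 1.19. Without ATO 1, 2 of the 5 were higher and the median was -0.28. Klb, the coreceptor of Fgf21, which adipocytes are known to express, had 13, 3, 36 and 239 counts in PBS 1, PBS 2, ATO 1 and ATO 2 (log2 fold change 4.64, SE 1.52, edgeR adjusted p = 0.570), and the log2 fold change was 2.23 without ATO 2. Like the adipocyte marker sum, Klb was higher in ATO 2 than in ATO 1 and higher in both than in the PBS sarcomas. Between the PBS sarcomas the order was opposite, with Klb higher in PBS 1 and the sum higher in PBS 2. The part of adipocytes in the Klb level was not tested. Fgfr2 was at 184 CPM in ATO 1 and between 2.07 and 21.04 in the others, and Fgfr1 was lower without overlap (-1.42, SE 0.67, and -0.61 without PBS 1).

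The p53 pathway genes that share Gdf15 with the stress response (10 genes) all had higher fitted levels in ATO, with a median of 1.84. By limma on log2(FPKM + 1), 9 of the 10 were higher. The groups did not overlap by CPM in 5 of them (19.7% of all genes were higher without overlap) and by FPKM in 3 (12.8%). The list does not hold every p53 target. In the list of other stress transcription factors above, Tnfrsf10b, which p53 activates, was fitted lower (-1.38). Bbc3 (Puma) of that list, which the study names as a p53 target, was fitted higher (0.66). Phlda3, which restrains Akt, was at 24.1 and 33.3 CPM in PBS 1 and PBS 2 and 154 and 233 in ATO 1 and ATO 2 (log2 fold change 2.75, SE 0.46, edgeR adjusted p = 0.570). Ccng1, a cyclin gene, was at 54.5 and 48.1 CPM in the PBS sarcomas and 333 and 215 in the ATO sarcomas (2.42, SE 0.46, edgeR adjusted p = 0.570). DESeq2 called 3 of the 10, Phlda3, Ccng1 and Cdkn1a, the last named because the count is small, where it called 4.17% of all genes. Without ATO 1 the median of the list was 0.49, and without PBS 1, 8 of the 10 were higher. Gdf15 differed from Phlda3 and Ccng1 in that the sarcomas of each group lay far apart and the groups overlapped. The groups also overlapped by CPM in Bax, Zmat3, Trp53inp1, Eda2r and Btg2 of this list. In Eda2r the sarcomas of each group lay far apart too, by 5.93-fold in PBS and 14.8-fold in ATO.

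**Figure D4:**
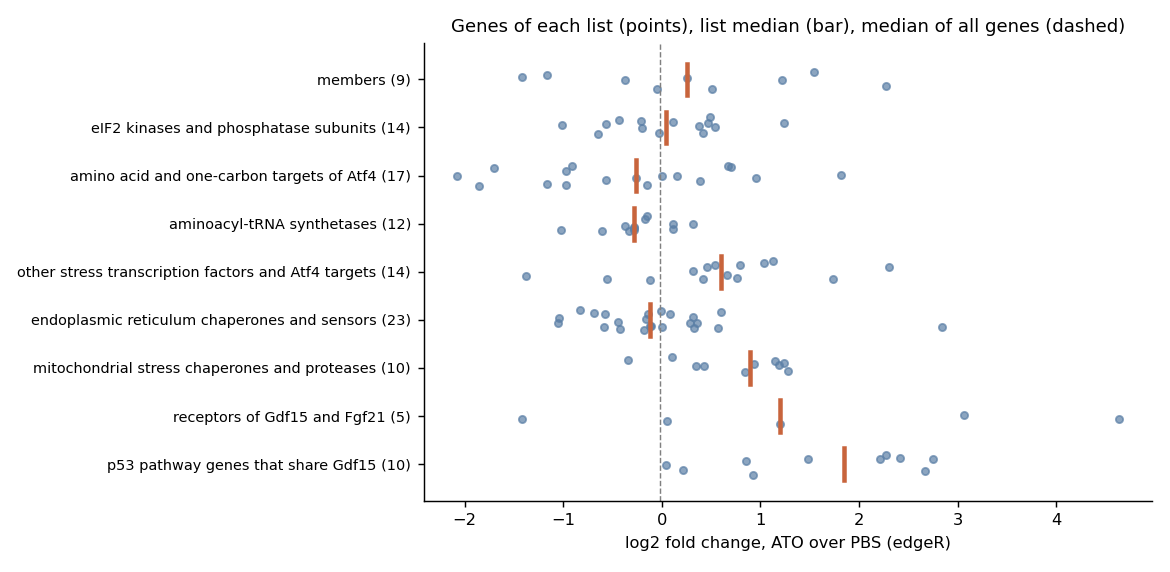
Fitted log2 fold change of ATO over PBS for each tested gene (points) of the 10 genes described here and of the 8 lists, with the number tested in parentheses, the median of each list as a bar and the median of all genes as a dashed line. The medians run from -0.28 for the aminoacyl-tRNA synthetases to 1.84 for the p53 pathway genes, and the points of most lists lie on both sides of 0.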

How the data were processed

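RNA-seq of 4 sarcomas of W/+ mice (2 ATO, 2 PBS) was analysed, grouped by the treatment in the labels. The study's methods and the labels differ on the RNA extraction and the library kit, and the labels of all 4 samples carry a culture protocol with adipogenic agents that the methods do not describe for tumors. The authors trimmed reads with Cutadapt (1.9.1, after FastQC 0.10.1), aligned them with HISAT2 (2.0.1), counted them per gene with HTSeq and deposited the raw counts. FPKM in the same deposited table equalled the count divided by exonic size and total count to within 0.005. Strand, annotation and multimapping settings were not given in the sources used here. The methods name GRCm38, but only 1472 of 52073 shared genes have their GENCODE M21 position in the table, so positions were taken from GENCODE M21 by gene identifier. The symbol was empty for 2639 genes, at most 0.171% of the counts of a library.

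The comparison of counts used edgeR 4.0.16 (R 4.3.3) with filterByExpr, a quasi-likelihood F-test on the trended dispersion (TMM factors from 0.822 to 1.11) and Benjamini-Hochberg adjustment over 17188 genes and a threshold of 0.05. Alternatives were DESeq2 1.42.0, its size factors, no filter, a replicate block, each sarcoma left out, mitochondrial genes left out, and limma 3.58.1 on log2(FPKM + 1) or log2(FPKM + 0.1). The scripts were tested on simulated counts. The members and lists were chosen with earlier results of these data known. Named from each list were up to 2 genes per direction with the lowest edgeR p, and the 3 genes closest in profile to Gdf15 and to Atf4. Summaries and figures were made in Python 3.11.15 (numpy 2.4.6, pandas 2.3.3, scipy 1.17.1, matplotlib 3.10.9).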

Additional observations from a re-analysis of the deposited data

How the results depend on the processing

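Of the 17188 genes tested, edgeR called 0, with 1463 at an unadjusted p under 0.05, a smallest adjusted p of 0.570 and a biological coefficient of variation of 62.5%. DESeq2 called 716 genes, 4 of them in the pathway lists (Klb, Phlda3, Ccng1 and Cdkn1a), and edgeR without the filter called 541 of 30859, 2 of them in the lists (Phlda3 and Cdkn1a). The other alternatives called 0, also when any sarcoma was left out. The 10 genes described here had 0 calls throughout, with a smallest adjusted p between 0.320 (DESeq2) and 0.872. Their median log2 fold change turned to -0.048 in limma on log2(FPKM + 1) and -0.051 in limma on log2(FPKM + 0.1), where the median of all genes was -0.18 and -0.27, and ranged from -0.13 to 0.44 with 1 sarcoma left out, with 4 to 6 genes higher. The replicate block gave 0 genes, 1165 with an unadjusted p under 0.05. No source says that the replicate numbers pair the sarcomas. Over the tested genes, the deviations of PBS 1 and ATO 1 from their group means had a correlation of 1e-04. This value cannot show whether the sarcomas were paired.

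In the same limma fits, Asns turned to -0.048 and -0.051, Wars to -0.007 and -0.009, and Mars1 to -0.16 and -0.17. With 1 sarcoma left out, the log2 fold change ranged from -0.74 to 4.37 for Gdf15, from -0.39 to 0.22 for Atf4, from -0.12 to 0.53 for Asns, from -0.77 to 3.19 for Chac1, from -0.81 to 0.24 for Hspa5, from -0.66 to 2.31 for Ppp1r15a, from -0.16 to 0.67 for Wars, from -0.03 to 0.23 for Mars1, from -2.11 to 0.17 for Tnfrsf10b, from -1.24 to 0.80 for Jdp2 and from -0.28 to 5.54 for Fgfr2. The cause was not tested. Over 37 genes and all alternatives, 385 of 407 values kept direction and side of the threshold, 18 turned direction and 4 passed the threshold. A left-out sarcoma leaves a group of 1, which was assumed to vary like the other group. Depth limits Fgf21, Gfral and Gdf15 in PBS 1, and intervals and limits cover counting error only.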
